A study of Mus musculus with 17 samples.

Results

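The comparison is between lungs of Clic4 knockout (KO) mice and wild-type (WT) mice at day 14, read out as RNA-seq of whole lung. Its members were chosen by the genotype and time in the sample labels: 5 KO and 6 WT libraries at day 14, 11 of the 17 libraries of the series. The libraries are called WT 1 to 6 and KO 1 to 5 below. The other 4 WT and 2 KO libraries are from day 0 and did not enter the contrast. All 11 carry the strain label FVB/6DT1, and all came from lung of mice aged 8 weeks. FVB is an inbred mouse strain and 6DT1 is a mouse mammary tumour cell line. The labels do not say what was done to the mice between day 0 and day 14, how the Clic4 allele was made or whether it is missing from every cell, and both genotypes carry the same strain label. The series asks what Clic4 contributes when breast tumour cells of mice spread to another organ. The labels do not tie each library to its own animal, so the p-values below measure the spread between these libraries, which may be technical. The series' design text gives other group sizes (5 WT and 6 KO mice at day 0, 2 WT and 6 KO at day 14) than the labels, and the labels were followed.

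CLIC4 belongs to the chloride intracellular channels, small proteins with a glutathione-transferase fold that exist in soluble form and at membranes. It is abundant in endothelial cells, where it takes part in the formation of vessel lumens, and it moves with actin regulators of the ezrin, radixin and moesin family. In the nucleus it prolongs TGF-beta signalling by keeping Smad proteins phosphorylated, and it has been linked to the conversion of fibroblasts to myofibroblasts in tumour stroma.

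Of the 18141 genes tested with edgeR's quasi-likelihood test, 16 differed between the genotypes at a Benjamini-Hochberg adjusted p under 0.05, which is 0.0882% of the genes. In KO lungs 10 were higher (0.0551%) and 6 lower (0.0331%). Clic4 itself was the most reduced of those with at least 1 count per 1000000 (CPM, reads of a gene per 1000000 reads of its library) in either group. The genes that rose off chromosome 4 included Cemip, a hyaluronan-degrading protein, the kinases Hipk2 and Cdk19, the cytoskeletal genes Map1b and Tmod2, the adrenergic receptor Adra1a and the myosin light chain Myl2. The endothelial and macrophage scavenger receptor Stab1 and the lipoprotein receptor Scarb1 fell. Another 4 of the 16, Selenon, Slc30a2, Pnrc2 and Zfp46, lie within about 1 Mb of Clic4.

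**Figure D1:**
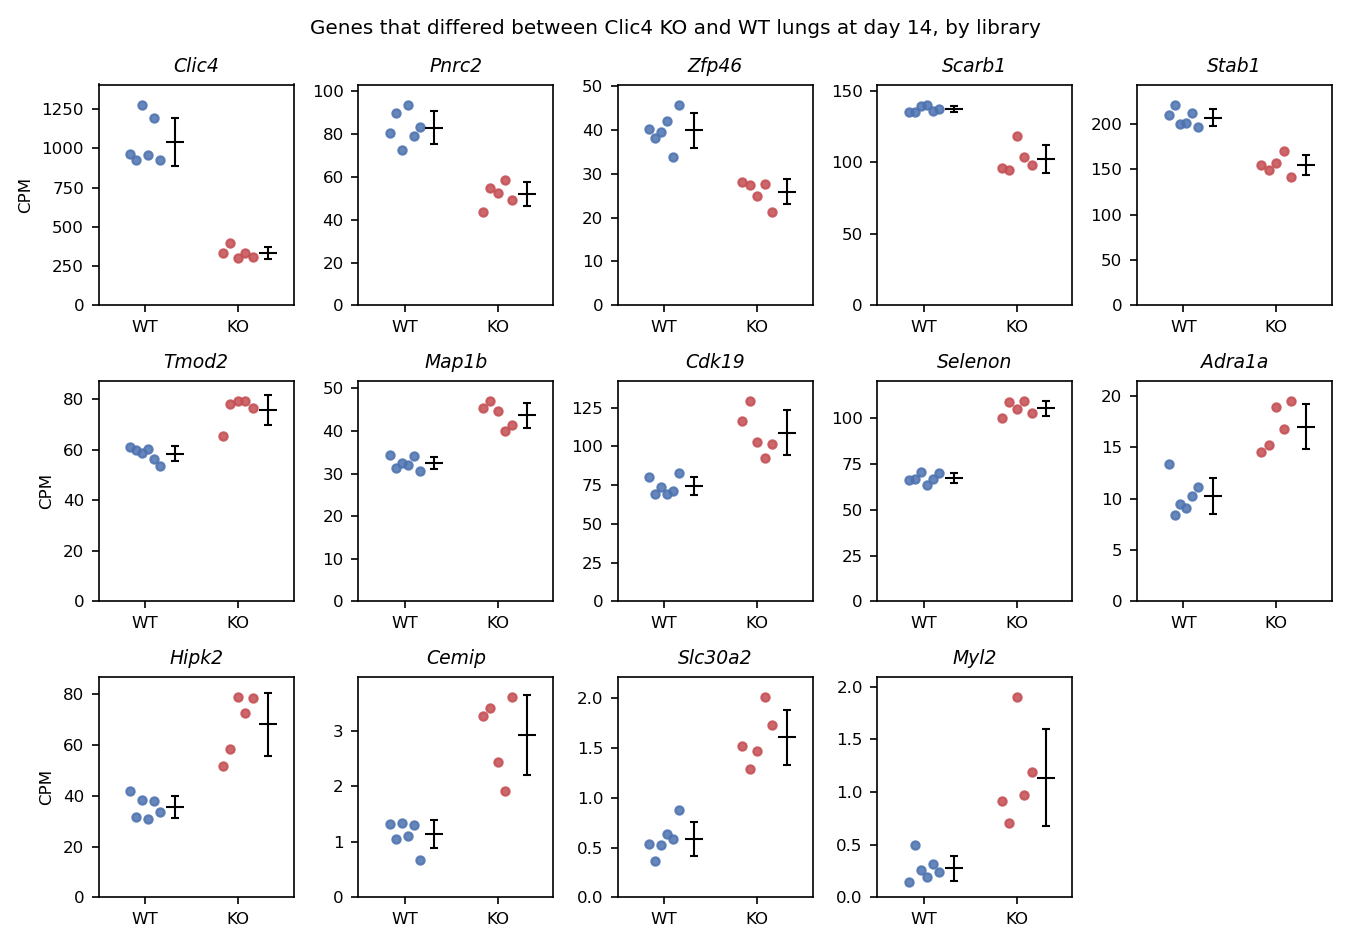
CPM of the 14 named genes that passed the test, 1 panel per gene, with 1 point per library of WT (n = 6) and KO (n = 5) and a bar at the mean ± SD; each panel has its own linear axis. In every panel the 5 KO points lie beyond all 6 WT points, as for Clic4 with 301 to 398 CPM in KO and 925 to 1279 CPM in WT.

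The libraries held 25981250 to 35743830 expected counts in WT and 20607811 to 31510615 in KO. Lung markers were present in all 11: surfactant gene Sftpc ran from 10390 to 12850 CPM, alveolar type 1 gene Ager from 1517 to 1807 CPM and airway gene Scgb1a1 from 13120 to 19610 CPM. A principal component analysis did not separate the genotypes on its first 3 components (18.8, 15.1 and 12.9% of the variance). Some libraries stood apart for whole groups of genes. KO 5 was the shallowest library, had 32040 CPM of erythroid genes in sum against 7787 to 11030 in the other KO libraries, and gave 9.26% of its reads to its 10 most abundant genes against 6.15 to 6.47%. WT 5 and KO 2 held 4547 and 4653 CPM of type I interferon response genes against at most 1194 CPM elsewhere. WT 3 held 371 CPM of natural killer cell genes against at most 205 CPM. Without KO 5 the test called 10 genes, without WT 5 it called 9, without KO 2 15 and without WT 3 10.

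**Figure D2:**
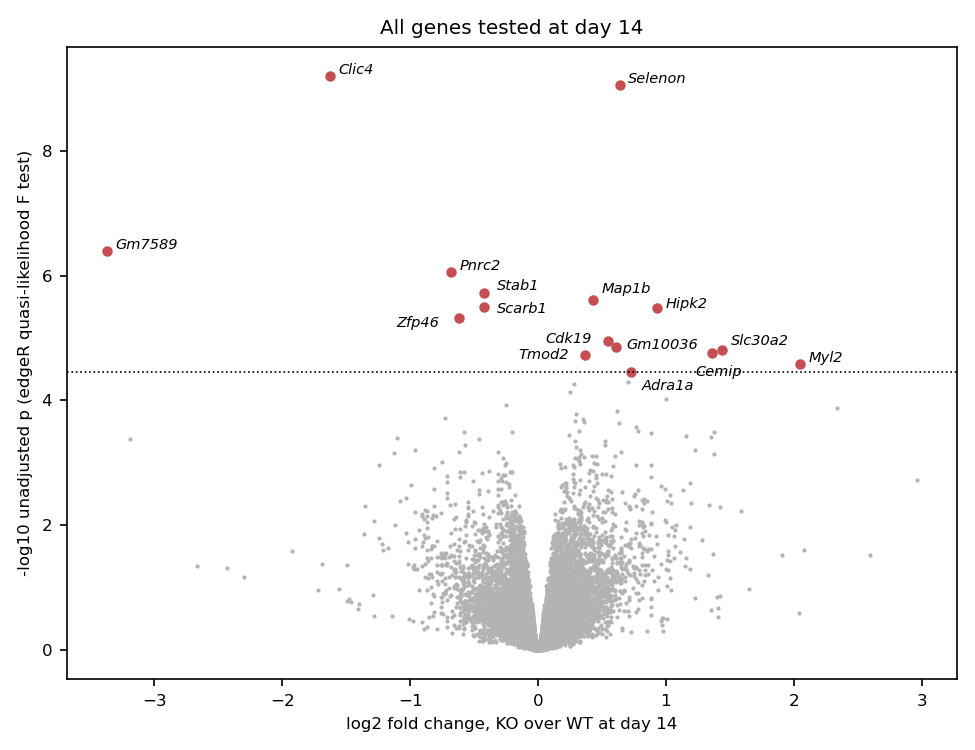
Each point is 1 of the 18141 genes, placed by its log2 fold change of KO against WT (x axis) and by the −log10 of its unadjusted p (y axis); red points are the 16 genes at an adjusted p under 0.05, and the dotted line marks the largest unadjusted p among them. Clic4 (log2 −1.63) and Selenon (log2 0.64) stand highest, and most other genes lie near 0.

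The targeted gene was examined first, since it checks the labels. In the 6 WT libraries Clic4 (chromosome 4, 135213969 to 135272814, minus strand, GRCm38) stood between 925 and 1279 CPM with a median of 962 CPM. In the 5 KO libraries it stood at 333, 398, 301, 336 and 308 CPM. Every KO library was below every WT library. The means were 1041 ± 154 CPM (SD, n = 6) and 335 ± 38.2 CPM (SD, n = 5), so that KO lungs kept 32.2% of the WT level (log2 fold change −1.63, SE 0.104, adjusted p = 8.1e-06). An exact permutation test of the genotype labels (462 assignments) gave a two-sided p of 0.00216, the smallest this design allows. The counts are totals over the gene, so they do not tell from which exons the remaining reads of KO lungs come. Whether they come from cells that kept the gene was not tested.

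The promoters of Clic4 and of 3 genes that changed elsewhere in the genome are shown as the annotated start regions of genes whose RNA differed; transcript starts were not measured here. Each is the 250 bases before the gene's start in RefSeq (GRCm38.p6), 5′ to 3′ on the gene's strand, and all 4 lie on the minus strand. Capitals mark the Smad half-site (CAGAC or GTCTG, searched on both strands, since Clic4 is known for its effect on Smads) and the GC box bound by Sp factors (GGGCGG or CCGCCC, both strands). GC boxes may overlap one another, as in Hipk2, which has 2 entries, of which 1 is shown.
Clic4, chr4:135272761-135273010: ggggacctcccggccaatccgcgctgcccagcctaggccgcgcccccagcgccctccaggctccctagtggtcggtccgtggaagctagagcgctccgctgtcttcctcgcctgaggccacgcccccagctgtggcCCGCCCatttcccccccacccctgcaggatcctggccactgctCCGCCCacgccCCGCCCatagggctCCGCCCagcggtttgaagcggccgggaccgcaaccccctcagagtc
Cemip, chr7:84086506-84086755: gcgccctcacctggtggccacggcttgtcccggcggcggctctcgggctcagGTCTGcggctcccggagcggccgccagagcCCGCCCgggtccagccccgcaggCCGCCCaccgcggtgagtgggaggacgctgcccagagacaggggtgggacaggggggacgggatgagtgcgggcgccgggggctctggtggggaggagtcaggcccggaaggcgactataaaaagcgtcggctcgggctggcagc
Hipk2, chr6:38876191-38876440: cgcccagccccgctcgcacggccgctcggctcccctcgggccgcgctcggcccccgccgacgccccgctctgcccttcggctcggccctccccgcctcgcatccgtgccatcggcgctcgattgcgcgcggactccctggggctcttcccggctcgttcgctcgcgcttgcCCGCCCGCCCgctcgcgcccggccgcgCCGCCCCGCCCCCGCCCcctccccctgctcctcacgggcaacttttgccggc
Stab1, chr14:31168642-31168891: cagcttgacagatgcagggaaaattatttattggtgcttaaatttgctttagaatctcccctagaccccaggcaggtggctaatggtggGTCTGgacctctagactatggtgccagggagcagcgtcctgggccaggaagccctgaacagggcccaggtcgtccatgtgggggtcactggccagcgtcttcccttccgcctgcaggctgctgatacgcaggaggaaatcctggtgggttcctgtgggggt
The window of Clic4 held 4 GC boxes and no Smad half-site, with 73.2% G and C. That of Cemip held 2 GC boxes, 1 Smad half-site and 1 TATA box (TATAAA or TTTATA, in lower case), with 75.2% G and C. The Hipk2 window held 5 GC boxes and no Smad half-site (80.8% G and C), and the Stab1 window held 1 Smad half-site and no GC box (57.2%). Among all 32851 promoter entries of the same length, 42.2% held a Smad half-site, 32.7% a GC box and 12.4% a TATA box, and the median share of G and C was 52.4%. A match describes the letters of the window and does not show binding.

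Among genes on other chromosomes, Hipk2, a nuclear kinase that acts on p53 and on transcriptional corepressors, rose. Hipk2 (chromosome 6, 38694390 to 38876165, minus strand) ran from 30.8 to 41.8 CPM in WT with a median of 35.8 CPM. In KO it stood at 51.95, 58.6, 79.1, 72.7 and 78.6 CPM, all above the highest WT library. Hipk2 was 1.91-fold higher in KO (35.7 ± 4.36 CPM, n = 6, against 68.2 ± 12.3 CPM, n = 5; log2 0.93, SE 0.119, adjusted p = 0.00761). The call was made with each of the 11 libraries left out in turn (adjusted p 0.00237 to 0.0311). At day 0 the order was the other way round: WT stood at 50.9, 35.0, 49.5 and 40.8 CPM and KO at 27.6 and 36.3 CPM, with overlap. The difference of the genotype effect between the days was 1.40 on the log2 scale (SE 0.234, unadjusted p = 1.86e-05), and at an adjusted p of 0.121 it did not pass over all genes.

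Cemip, a secreted and cell surface protein needed for the breakdown of hyaluronan, the large sugar polymer of the extracellular matrix, rose at a low level. Cemip (chromosome 7, 83932857 to 84086502, minus strand) ran from 0.678 to 1.34 CPM in WT with a median of 1.20 CPM, which rested on 20 to 46 reads. In KO it stood at 3.26, 3.40, 2.44, 1.905 and 3.61 CPM, on 53 to 103 reads. No KO library fell within the WT range, and KO 4 came nearest to it. Cemip was 2.56-fold higher in KO (1.13 ± 0.252 CPM, n = 6, against 2.92 ± 0.723 CPM, n = 5; log2 1.36, SE 0.211, adjusted p = 0.0243). The call ended when WT 2, WT 3, WT 4, WT 5, KO 1, KO 2 or KO 5 was left out (adjusted p 0.0543 to 0.084), in limma-voom (0.0549) and in limma on log2(FPKM + 1) without a filter (0.168). At day 0 Cemip had the same sign, with 4.31 and 3.50 CPM in the 2 KO libraries against 1.19 to 1.80 CPM in WT. The day 0 log2 difference was 1.36 (edgeR, adjusted p = 0.14), and the genotype effects of the days differed by 0.00 (edgeR, unadjusted p = 0.994).

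Among receptors, Stab1, which takes up modified lipoproteins in sinusoidal and lymphatic endothelium and in some macrophages, fell. Stab1 (chromosome 14, 31139013 to 31168641, minus strand) ran from 196 to 221 CPM in WT with a median of 205 CPM. In KO it stood at 154, 149, 157, 170.3 and 141 CPM, every library below the lowest of WT. KO lungs held 74.7% of the WT level (206 ± 9.42 CPM, n = 6, against 154 ± 10.9 CPM, n = 5; log2 −0.42, SE 0.0532, adjusted p = 0.0068). This held with each library left out (adjusted p 0.0036 to 0.0265), but not in limma on the authors' deposited FPKM values (log2(FPKM + 1) difference −0.32, adjusted p = 0.34). In bulk tissue, fewer cells of a type and less RNA per cell cannot be told apart. For the 18 tested genes of interstitial macrophages and monocytes, which include Stab1, the summed level was 2461 to 3057 CPM in WT and 2105 to 2670 CPM in KO, with 9 members positive and 9 negative. The shared endothelial genes stood at 7657 to 8434 CPM in WT and 7390 to 8092 CPM in KO, and the part of either cell type in the fall of Stab1 was not tested.

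Scarb1, the receptor for high-density lipoprotein, which also stands in endothelium and in alveolar cells, fell by a like amount. Scarb1 (chromosome 5, 125277087 to 125341094, minus strand) was even across WT libraries, from 135 to 140.4 CPM with a median of 137 CPM. In KO it stood at 96.1, 94.8, 119, 104 and 97.9 CPM, all below WT, with KO 3 the highest. KO lungs held 74.5% of the WT level (137 ± 2.16 CPM, n = 6, against 102 ± 9.78 CPM, n = 5; log2 −0.42, SE 0.0564, adjusted p = 0.00761). It passed with each library left out (adjusted p 0.00043 to 0.0324) and missed in limma on log2(FPKM + 1) without a filter (0.0807). At day 0 the log2 difference of Scarb1 was −0.17 and that of Stab1 −0.23, neither past the test (adjusted p = 0.729 and 0.723).

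Cdk19, a cyclin-dependent kinase of the Mediator complex that can take the place of Cdk8, rose. Cdk19 (chromosome 10, 40339564 to 40483818, plus strand) ran from 69.1 to 82.5 CPM in WT with a median of 72.3 CPM. In KO it stood at 117, 129.5, 103, 92.5 and 101 CPM, above all WT libraries. The means were 74.3 ± 5.71 CPM (n = 6) and 109 ± 14.5 CPM (n = 5), a 1.46-fold difference (log2 0.55, SE 0.0816, adjusted p = 0.0199). Cdk19 passed in 6 of 11 fits with a library left out, and missed without WT 2, WT 3, WT 4, WT 5 or KO 1 (adjusted p 0.0609 to 0.0694) and in limma on FPKM (0.0728 to 0.157). At day 0 the WT libraries held 82.9 to 94.1 CPM and the 2 KO libraries 97.65 and 103 CPM (log2 0.16, adjusted p = 0.811).

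The cytoskeletal genes that rose were Map1b and Tmod2. Map1b encodes a protein that binds microtubules, known best from growing nerve fibres. Map1b (chromosome 13, 99421446 to 99516540, minus strand) ran from 30.7 to 34.3 CPM in WT with a median of 32.3 CPM and stood at 45.4, 47.15, 44.6, 40.0 and 41.4 CPM in KO, without overlap. The means were 32.5 ± 1.45 CPM (n = 6) and 43.7 ± 2.93 CPM (n = 5), 1.34-fold higher (log2 0.43, SE 0.0553, adjusted p = 0.00733), and the call was made with each library left out. In limma on FPKM Map1b did not pass (adjusted p 0.088 to 0.233), nor did Tmod2 (0.0864 to 0.167). Tmod2 caps the slow-growing ends of actin filaments. Tmod2 (chromosome 9, 75565621 to 75611325, minus strand) ran from 53.65 to 61.3 CPM in WT with a median of 59.4 CPM and stood at 65.5, 77.95, 79.2, 79.5 and 76.5 CPM in KO. KO 1 was the nearest to the WT range. The means were 58.4 ± 2.93 CPM (n = 6) and 75.7 ± 5.84 CPM (n = 5), 1.3-fold higher (log2 0.37, SE 0.0586, adjusted p = 0.0245), and this call was kept only when WT 1 or KO 1 was the library left out (adjusted p 0.063 to 0.0846 otherwise). At day 0 the log2 differences were 0.04 for Map1b and 0.00 for Tmod2. The difference between the days was 0.39 for Map1b (unadjusted p = 0.000647, adjusted p = 0.753) and 0.37 for Tmod2 (unadjusted p = 0.00115).

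Adra1a and Myl2 were the remaining genes that rose. Adra1a encodes an alpha-1 adrenergic receptor that contracts smooth muscle. Adra1a (chromosome 14, 66635251 to 66771168, plus strand) ran from 8.37 to 13.3 CPM in WT with a median of 9.865 CPM and stood at 14.5, 15.2, 18.9, 16.8 and 19.5 CPM in KO. The groups did not overlap, and the means were 10.3 ± 1.77 CPM (n = 6) and 17.01 ± 2.2 CPM (n = 5; log2 0.73, SE 0.121, adjusted p = 0.0392). It was the weakest of the calls: among the fits with a library left out it passed only without WT 1, with an adjusted p of 0.0517 to 0.124 in the others, and it missed in limma-voom (0.0536) and limma on FPKM (0.173 to 0.344). Myl2 encodes the regulatory light chain of myosin in heart ventricle and slow muscle. Myl2 (chromosome 5, 122100951 to 122113472, plus strand) rested on 5 to 15 reads in WT, at 0.1495 to 0.496 CPM with a median of 0.250 CPM, and on 17 to 61 reads in KO, at 0.919, 0.706, 1.91, 0.971 and 1.19 CPM. Its means were 0.276 ± 0.122 CPM (n = 6) and 1.14 ± 0.463 CPM (n = 5; log2 2.05, SE 0.332, adjusted p = 0.0318), and it passed only without WT 2 or KO 2 among the fits with a library left out (0.0617 to 0.109 otherwise). Myl2 missed in limma-voom (0.0509) and limma on FPKM (0.0769 to 0.168). Of the 14 genes of heart and pulmonary vein muscle, a list that does not hold Myl2, 13 had negative values, with a median log2 difference of −0.26 (−0.16 without WT 5; KO 4 moved it nearly as far). Their summed level was 1482 to 2519 CPM in WT and 1181 to 1783 CPM in KO. Tnnt2, a troponin of heart muscle, stood at 137 ± 30.1 CPM in WT and 91.2 ± 10.9 CPM in KO (adjusted p = 0.286 in edgeR, 0.00689 in DESeq2, which called it and no other of the list). No member of the list was called by edgeR or limma-voom, and 5 were lower at an unadjusted p under 0.05. The skeletal muscle genes had 5 of 11 members tested, 4 of them positive, with a median of 0.435 (0.188 without KO 5). Acta1 was at log2 1.02 (edgeR, adjusted p = 0.564), with 4.88, 7.39, 4.72, 2.52 and 14.6 CPM in KO against 1.75 to 4.40 CPM in WT. The part of muscle tissue in the samples was not tested.

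The other called genes with a symbol of a known gene lie beside Clic4. Selenon, a selenoprotein of the endoplasmic reticulum, is 0.662 Mb from Clic4 (chromosome 4, 134537892 to 134552166, minus strand). It ran from 63.7 to 70.6 CPM in WT with a median of 66.85 CPM and stood at 100.1, 109, 105, 109.5 and 103 CPM in KO. The spread within either group was small: 67.3 ± 2.57 CPM (n = 6) against 105 ± 3.94 CPM (n = 5), 1.56-fold higher (log2 0.64, SE 0.0438, adjusted p = 8.1e-06, as small as that of Clic4). Slc30a2, a zinc transporter at 0.859 Mb (134343181 to 134354484, plus strand), ran from 0.364 to 0.881 CPM in WT with a median of 0.564 CPM, on 11 to 26 reads. In KO it stood at 1.52, 1.29, 1.47, 2.01 and 1.73 CPM on 31 to 56 reads, above every WT library (0.589 ± 0.17 against 1.604 ± 0.278 CPM; log2 1.44, SE 0.221, adjusted p = 0.0231). The Slc30a2 call ended without WT 1, WT 3, WT 4, WT 5, KO 1, KO 4 or KO 5 (adjusted p 0.0592 to 0.0835) and in limma on log2(FPKM + 1) without a filter (0.0866).

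Pnrc2 and Zfp46, on the other side of Clic4, fell. Pnrc2, whose protein helps nuclear receptors activate genes and acts in mRNA decapping, is 0.598 Mb away (135870918 to 135873850, minus strand). It ran from 72.3 to 93.7 CPM in WT with a median of 81.7 CPM and stood at 43.7, 54.8, 52.6, 58.4 and 49.3 CPM in KO, without overlap. KO lungs held 62.4% of the WT level (83.0 ± 7.69 CPM, n = 6, against 51.75 ± 5.59 CPM, n = 5; log2 −0.68, SE 0.0808, adjusted p = 0.00399). In limma on log2(FPKM + 1) the difference was smaller, at −0.27 (adjusted p = 0.702). Zfp46, a zinc finger gene at 1.01 Mb (136284683 to 136293942, plus strand), ran from 33.8 to 45.7 CPM in WT with a median of 39.9 CPM and stood at 28.2, 27.5, 24.98, 27.65 and 21.3 CPM in KO. It held 65.1% of the WT level (39.9 ± 3.96 against 25.9 ± 2.86 CPM; log2 −0.62, SE 0.0855, adjusted p = 0.00975), and did not pass in limma on FPKM (adjusted p 0.0632 to 0.144).

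Genes near Clic4 were tested against the same threshold as all others. Of the 159 tested genes within 5 Mb, Clic4 left out, 4 passed and 43 (27%) had an unadjusted p under 0.05, against 1324 of 17065 (7.76%) on other chromosomes. Between 5 and 10 Mb none of 121 passed in edgeR, DESeq2 or limma-voom and 18 (14.9%) had an unadjusted p under 0.05, and on the rest of chromosome 4 67 of 795 (8.43%) had. DESeq2 called 15 genes within 5 Mb, 9 higher and 6 lower. The immediate neighbours were not among those called: Runx3, a transcription factor gene 0.036 Mb away, had a log2 difference of −0.16 (adjusted p = 0.843) and Srrm1, a splicing gene 0.048 Mb away, one of 0.00. The 4 called neighbours had like values at day 0, in libraries that the day 14 contrast did not use: Selenon 0.61 (adjusted p = 0.000143), Pnrc2 −0.67 (0.0343), Zfp46 −0.60 (0.14) and Slc30a2 1.53 (0.156) on the log2 scale. The difference between the days was 0.04, −0.01, −0.03 and −0.09 for these genes in the same order. Deletion of Clic4 and the chromosome segment that carries the allele cannot be told apart in this design.

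**Figure D3:**
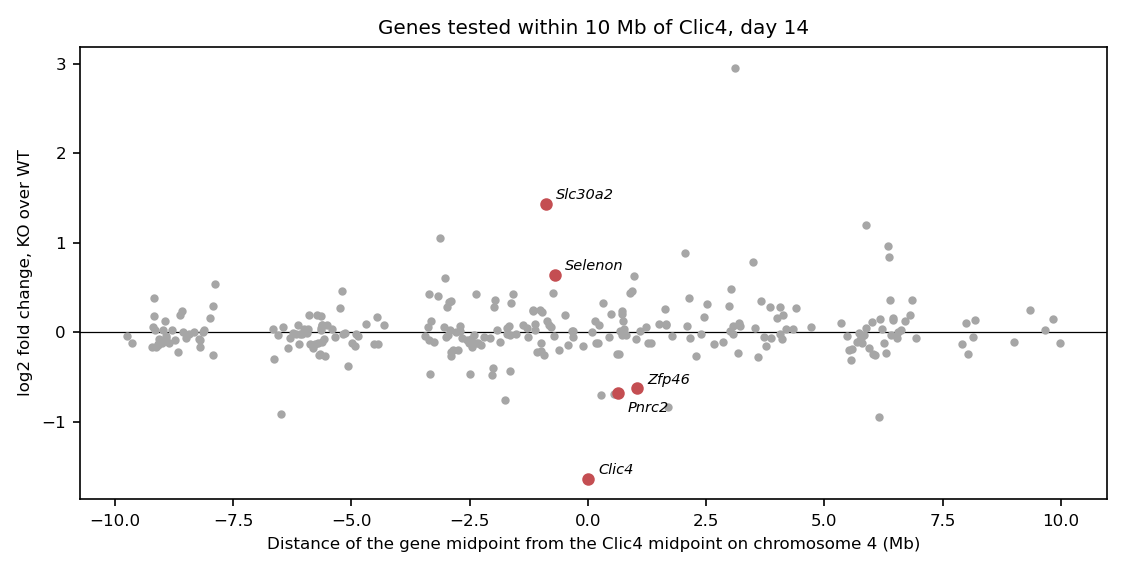
Log2 fold change of KO against WT (y axis) for each tested gene within 10 Mb of Clic4, by its distance from Clic4 in Mb (x axis); red points passed the test. Besides Clic4 at −1.63, the 4 called genes all lie within about 1 Mb, Selenon and Slc30a2 above 0 and Pnrc2 and Zfp46 below.

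Both remaining genes that passed are processed pseudogenes, which the naming rule leaves out, and they are named here after their values were seen. Gm10036, on chromosome 18, stood at 4.59 ± 0.41 CPM in WT and 7.01 ± 0.262 CPM in KO (log2 0.61, SE 0.0925, adjusted p = 0.0226), and passed in 3 of 11 fits with a library left out (adjusted p up to 0.0741). Gm7589, on chromosome 9, stood at 0.796 ± 0.0874 CPM in WT, on 19 to 31 reads, and at 0.127, 0.0830, 0.0313, 0.108 and 0 CPM in KO, on 4, 2, 1, 3 and 0 reads (log2 −3.37, SE 0.375, adjusted p = 0.00248). Both are 534 bases long and copies of the ribosomal protein gene Rpl11: 76.6% of the 31-base words of Gm10036 and 53.4% of those of Gm7589 occur in Rpl11 transcripts. Rpl11 itself lies 0.755 Mb from Clic4 and had a log2 difference of −0.03. At day 0 Gm10036 was at log2 0.79 (edgeR, adjusted p = 0.0106) and Gm7589 at −1.51 (adjusted p = 0.581). Reads shared by near-identical copies can be divided between them by the counting, so both values are uncertain.

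All 14 named genes that passed had groups without overlap, as had 176 of the 18141 genes tested (0.97%), of which 108 (0.595%) had KO above WT and 68 (0.375%) KO below. The next 11 genes by unadjusted p under the naming rule did not pass in edgeR, although their groups did not overlap either. DESeq2 called all 11 (adjusted p 4.53e-05 to 0.00457), and limma-voom called none of them (0.068 to 0.203). Ccl22, a chemokine made by dendritic cells and macrophages, came nearest, with 10.95 ± 1.66 CPM in WT and 17.75 ± 2.74 CPM in KO (log2 0.70, SE 0.121, adjusted p = 0.0544). Car4, a carbonic anhydrase that marks the aerocyte capillaries of the alveolus, stood at 190.0 ± 8.5 CPM in WT and 230.4 ± 12.1 CPM in KO (log2 0.28, adjusted p = 0.0546). Dkk2, a secreted Wnt antagonist, stood at 1.28 ± 0.196 and 2.55 ± 0.609 CPM (log2 1.0, adjusted p = 0.0848), and Sulf2, which trims sulfate from heparan chains, at 31.65 ± 1.9 and 38.7 ± 2.33 CPM (log2 0.29, adjusted p = 0.141). Olfm2 was lower, at 11.2 ± 1.64 CPM in WT and 6.69 ± 1.45 CPM in KO (log2 −0.73, adjusted p = 0.136). The other 6 were Elk4 (log2 0.25), Arhgef12 (0.30), Rragd (0.35) and 3 neighbours of Clic4, namely Srsf10 (−0.25), Tmem222 (0.36) and Asap3 (0.63), with adjusted p from 0.0701 to 0.143. Ccl22, Car4 and Dkk2 had log2 differences of 0.12, 0.15 and 0.08 at day 0.

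The difference of the genotype effect between day 14 and day 0 was tested for 19557 genes in a fit of all 4 groups. edgeR called none, with 890 at an unadjusted p under 0.05, and no other tool was run for it. Day 0 has 2 KO libraries, which limits this test. The same fit called 5 genes at day 0. Among the named genes that passed off chromosome 4, Hipk2, Map1b, Tmod2, Cdk19, Adra1a, Myl2, Scarb1 and Stab1 had larger genotype differences at day 14 than at day 0, and Cemip did not. At day 0 the log2 difference was −0.05 for Adra1a and 1.23 for Myl2. The difference between the days had an unadjusted p (edgeR) of 0.0115 for Adra1a, 0.0123 for Scarb1, 0.116 for Stab1 and 0.27 for Myl2. For none of these genes did it pass the adjusted threshold.

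Gene lists were read by how many members were higher or lower, beside the background of all genes, for which the median log2 difference was 0.001 and 9136 of 18141 values were positive. Of 57 lists of cell types, pathways and sample quality, 7 held a member called by edgeR and 50 held none. In 32 lists no member was called by edgeR, DESeq2 or limma-voom. Over all genes, 8.01% had an unadjusted p under 0.05, 4.43% higher and 3.58% lower in KO.

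**Figure D4:**
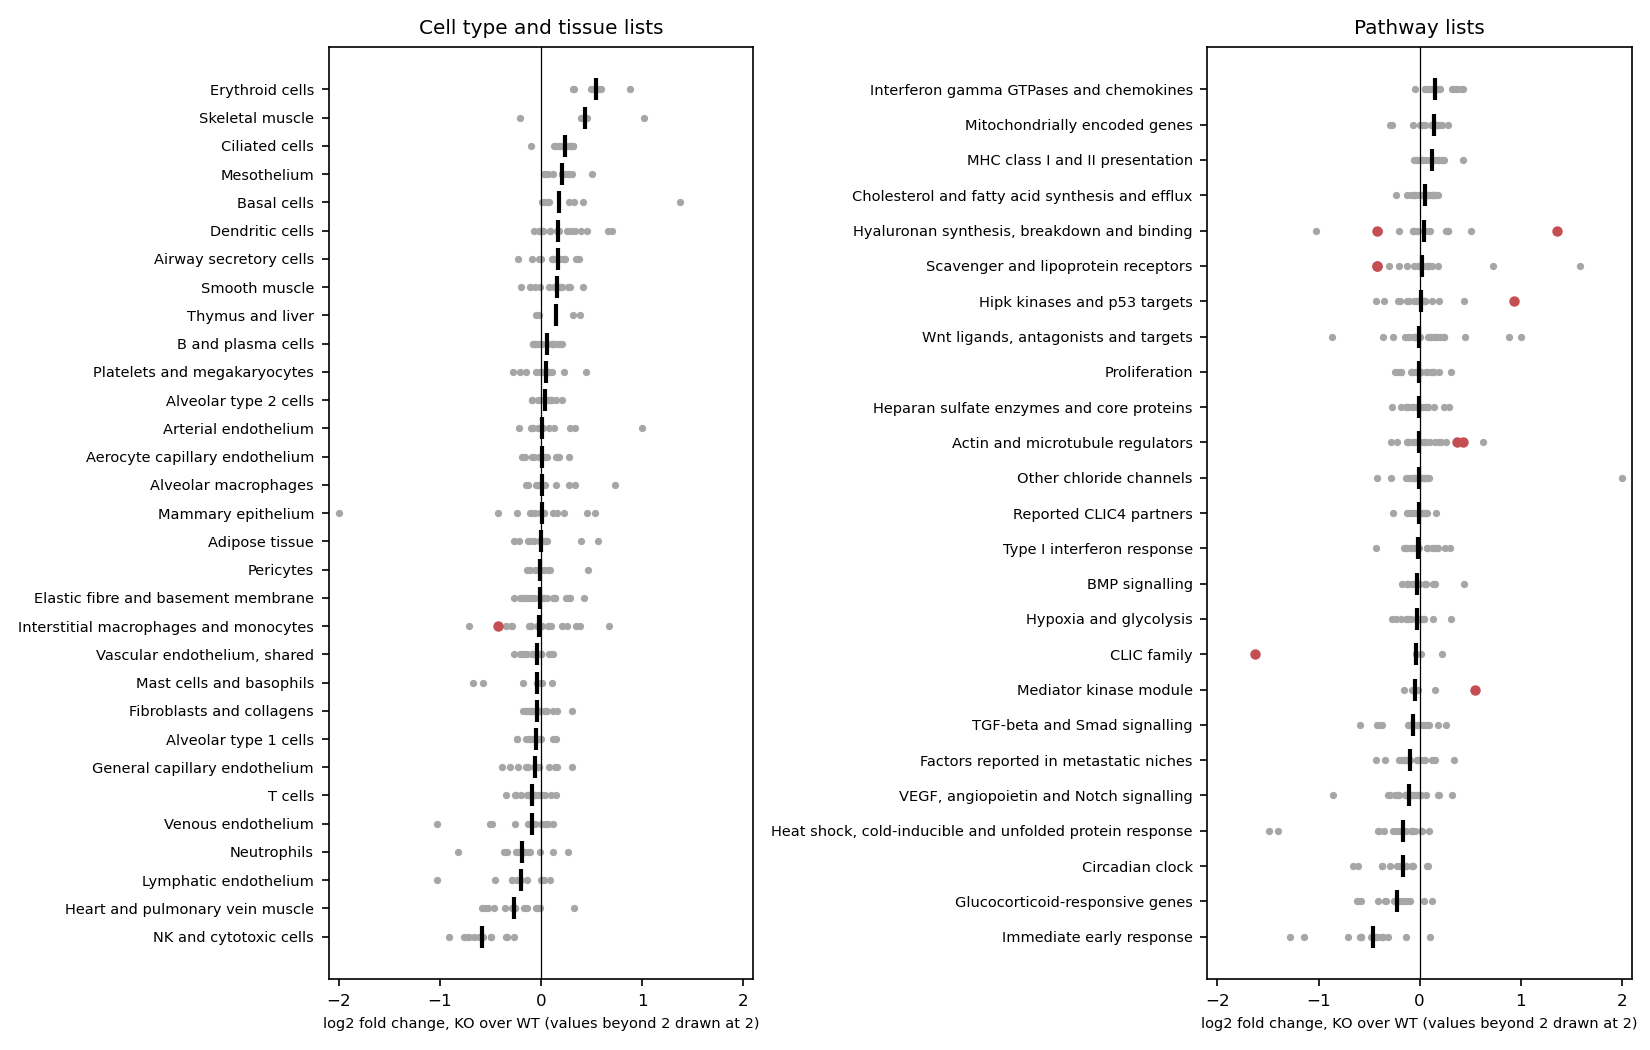
Log2 fold change of KO against WT (x axis; values beyond ±2 are drawn at 2) of the tested members of each list, 1 row per list; grey points are members, red points members that passed the test, and black ticks the list medians. Most medians lie near 0, and the lists that lie farthest from it, such as natural killer cells at −0.58, hold no called member.

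Among the CLIC family, Clic4 was the only member that passed of 5 tested. Clic1, Clic3 and Clic5 had log2 differences of 0.01, −0.04 and −0.04. Clic6 stood at 31.97 ± 1.74 CPM in WT and 37.2 ± 2.47 CPM in KO without overlap (log2 0.22, adjusted p = 0.321). Of 18 tested genes for ezrin-family proteins, exchange regulators and other reported partners of CLIC4, none passed in edgeR, DESeq2 or limma-voom, 1 had an unadjusted p under 0.05, and 7 were positive and 11 negative. Other chloride channels had 10 positive and 13 negative of 23, with none passing in any of those tools and 1 at an unadjusted p under 0.05. Clca1, a secreted goblet cell protein, had the largest difference in that list (log2 2.60, adjusted p = 0.571), with 0.590 to 8.87 CPM in WT and 7.29, 69.9, 13.1, 1.69 and 3.36 CPM in KO, so that KO 2 alone stood far above.

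TGF-beta and Smad genes, the pathway CLIC4 is known to prolong, had none of 22 members called by edgeR, DESeq2 or limma-voom and 3 with an unadjusted p under 0.05. Of the 22, 6 were positive and 16 negative, with a median of −0.06 (−0.04 without WT 3 or KO 5). Tgfb1, a ligand, had a log2 difference of 0.00, and Tgfb3 one of 0.18. Ccn2, a matrix protein induced by TGF-beta, was at −0.41 (adjusted p = 0.508), and Pmepa1, a feedback inhibitor, at 0.26. BMP genes had 7 positive and 14 negative of 21, no call in any of the tools and 1 member at an unadjusted p under 0.05. Id3, a BMP target at log2 0.44 (adjusted p = 0.515), lies 0.871 Mb from Clic4. Fibroblast and collagen genes had 6 positive and 16 negative of 22, a median of −0.04 (−0.14 without KO 2, −0.02 without KO 4), no call in any of the tools and no member at an unadjusted p under 0.05. Col1a1, the main fibrillar collagen chain, was at log2 0.31 (adjusted p = 0.689).

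Genes of the hyaluronan list moved in both directions. Of 18 tested of 21 listed, Cemip rose and Stab1 fell, and 10 were positive and 8 negative. Stab1 counts here as a member of the list, and whether it acts on hyaluronan was not tested. At an unadjusted p under 0.05 (edgeR), 2 members were higher, Cemip and Hyal1, and 3 were lower. The lower ones were Stab1, Lyve1 (log2 −1.03, adjusted p = 0.411) and Hapln3 (log2 −0.40, adjusted p = 0.526). The synthases Has1, Has2 and Has3, which did not reach that threshold, had log2 differences of 0.28, 0.51 and 0.26. The degrading enzymes Hyal1 and Hyal2 were at 0.28 and −0.03. Cemip2, the relative of Cemip, was at −0.06 and the hyaluronan receptor Cd44 at −0.07. Stab2, the relative of Stab1, was below the count filter.

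Scavenger and lipoprotein receptors had 2 of 20 tested members called, Stab1 and Scarb1, both lower. The list as a whole was split, with 11 positive and 9 negative and a median of 0.02 that turned to −0.02 without WT 6 or KO 3. Cd36, a fatty acid and lipoprotein receptor of capillaries and macrophages, was at log2 −0.01, and the macrophage receptors Mrc1 and Msr1 at −0.01 and 0.12. Cd163 was at −0.30 and Marco, of alveolar macrophages, at 0.73 (adjusted p = 0.526). Genes of cholesterol and fatty acid synthesis and efflux had 19 positive and 7 negative of 26, a median of 0.05 (0.00 without WT 6, 0.08 without WT 5), and no member called by edgeR, DESeq2 or limma-voom or at an unadjusted p under 0.05.

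Hipk2 was the only called member among 22 Hipk and p53 genes, of which 13 were positive and 9 negative. The other Hipk kinases had log2 differences of 0.04 (Hipk1), 0.00 (Hipk3) and −0.43 (Hipk4, adjusted p = 0.679). The p53 targets Cdkn1a and Mdm2 stood at 0.04 and −0.02, and Trp53 itself at 0.02. Ccng1, Phlda3 and Eda2r, also p53 targets, had unadjusted p under 0.05 with log2 differences of 0.12, 0.19 and 0.44 (adjusted p 0.528 to 0.609). In the Mediator kinase module Cdk19 rose, while other members had values of −0.02 (Cdk8), −0.05 (Ccnc), −0.16 (Med12, adjusted p = 0.571), −0.05 (Med13) and 0.15 (Med12l, adjusted p = 0.877).

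Actin and microtubule regulators had 2 of 25 members called by edgeR, Map1b and Tmod2, both higher, and 12 positive against 13 negative. DESeq2 also called Asap3, the neighbour of Clic4 (log2 0.63, adjusted p = 0.00221). The other tropomodulins had log2 differences of −0.11 (Tmod1), −0.12 (Tmod3) and −0.22 (Tmod4). Map1a was at 0.15 and Map4 at −0.02. Mapt and Stmn2, microtubule regulators of nerve cells like Map1b, were at 0.21 (adjusted p = 0.45) and 0.26 (0.496). The smooth muscle list, which holds contractile genes and shares a tissue with Adra1a, had 10 positive and 4 negative of 14, a median of 0.16, and no member called by edgeR or limma-voom. In that list 5 members were higher and 2 lower at an unadjusted p under 0.05, and DESeq2 called 3: Des (0.21), Actg2 (0.42) and Tpm2 (0.29).

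Vascular genes were next, since CLIC4 is abundant in endothelium. VEGF, angiopoietin and Notch genes had 6 positive and 20 negative of 26, with a median of −0.11 (−0.071 without WT 1), 1 higher and 7 lower at an unadjusted p under 0.05, none called by edgeR or limma-voom and 1, Flt1, by DESeq2. Flt1, a VEGF receptor, stood at 428 ± 25 CPM in WT and 370.2 ± 18.8 CPM in KO without overlap (log2 −0.21, adjusted p = 0.286). Flt4, the receptor of lymphatic growth factors, stood at 99.4 ± 6.56 and 81.6 ± 9.55 CPM (adjusted p = 0.309), and Notch1 at 314 ± 42.7 and 253 ± 23.6 CPM (adjusted p = 0.436). Vein genes had 4 positive and 7 negative of 11, with none called by edgeR or limma-voom, Vwf called by DESeq2, and 3 lower at an unadjusted p under 0.05. Vwf, the clotting factor carrier stored in endothelium, ran from 698 to 806 CPM in WT and stood at 638, 606, 624, 697 and 562 CPM in KO (log2 −0.26, adjusted p = 0.26), where KO 4 missed the WT range by about 1 CPM. The summed level of vein genes was 1593 to 1694 CPM in WT and 1294 to 1525 CPM in KO, without overlap. The list shares Lyve1 (253 CPM in WT, 124 CPM in KO) with the lymphatic list. Lyve1 made up 365.8 of the 1667 CPM in WT 3 and 148.5 of the 1525 CPM in KO 4. Without Lyve1 the sum of KO 4 therefore lies above that of WT 3, and the groups overlap. With vein members weighted equally, as the mean log2 CPM relative to each gene's mean over the libraries, the groups overlapped (WT 4 at 0.004, KO 4 at 0.04). Arterial genes had 7 positive and 6 negative of 13, with 3 higher and 0 lower at an unadjusted p under 0.05. None was called by edgeR or limma-voom, and DESeq2 called Cxcl12 (log2 0.33, adjusted p = 0.0256) and Dkk2 (1.0, 0.00069), both higher. The capillary lists had 9 positive and 5 negative of 14 for aerocytes and 4 positive and 8 negative of 12 for general capillaries. At an unadjusted p under 0.05, 4 aerocyte genes were higher and 1 lower, and 1 general capillary gene was higher and 3 lower. Sema3c (log2 0.31) and Plvap (−0.31), both of general capillaries, were called by DESeq2 and not by edgeR (adjusted p = 0.243 and 0.292).

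Lymphatic endothelial genes had 3 positive and 8 negative of 11, with a median of −0.20 (−0.12 without WT 3, WT 5 or KO 4), and no call in edgeR, DESeq2 or limma-voom; 3 were lower at an unadjusted p under 0.05. Their summed level ran from 733 to 936 CPM in WT and stood at 611, 608, 612, 619 and 709 CPM in KO, so the groups did not overlap. Lyve1, a hyaluronan receptor of lymphatic vessels and some macrophages, is a member of this list and of the vein list. Lyve1 ran from 169 to 366 CPM in WT and stood at 103, 79.3, 95.1, 148.5 and 193.5 CPM in KO, with overlap through KO 5 (log2 −1.03, SE 0.273, adjusted p = 0.411). Prox1, the transcription factor that defines lymphatic endothelium, had a log2 difference of 0.02, and Pdpn one of −0.24.

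**Figure D5:**
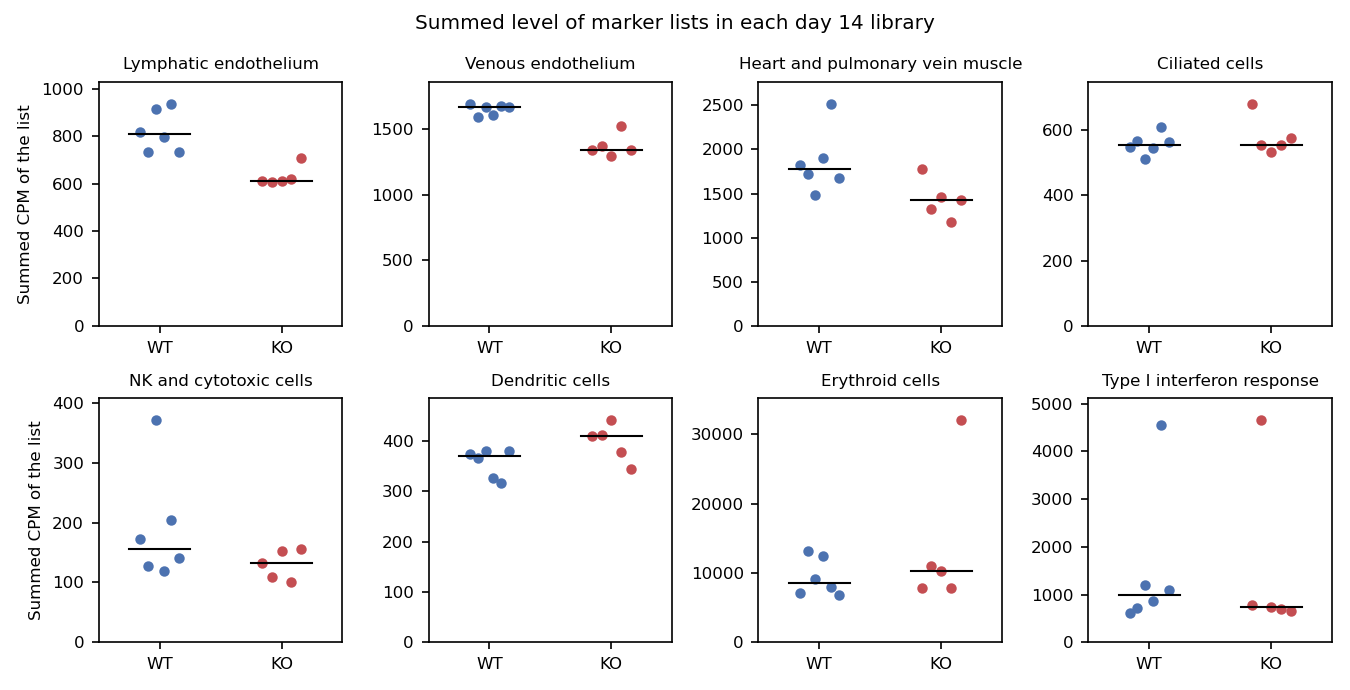
Summed CPM of 8 gene lists (y axis, 1 panel per list with its own axis), 1 point per library for WT (n = 6) and KO (n = 5); the line is the group's median. Lymphatic genes lie between 608 and 709 CPM in KO and between 733 and 936 CPM in WT, while for erythroid, type I interferon and natural killer genes single libraries lie far from the others of their group.

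Among airway and lining cells, ciliated cell genes had 14 positive values of 15, with a median of 0.24 (0.18 without KO 1). At an unadjusted p under 0.05, 8 were higher; edgeR and limma-voom called none and DESeq2 called Dnah9. Dnah5 and Dnah9, heavy chains of the ciliary dynein motor, did not overlap between the groups, with log2 differences of 0.32 each (adjusted p = 0.378 and 0.24). The summed level of ciliated genes did overlap, at 511 to 609 CPM in WT and 532 to 680.1 CPM in KO, with medians of 554.5 and 554.7 CPM. Only KO 1 lay above the WT range. Mesothelial genes were positive for 11 of 11 with a median of 0.21 (0.098 without KO 2), of which 3 had an unadjusted p under 0.05 and none was called by edgeR, DESeq2 or limma-voom. Alveolar type 2 genes had 12 positive of 15, with a median of 0.04 (0.02 without KO 3, 0.11 without KO 1) and no member at an unadjusted p under 0.05 or called by any of the tools. Alveolar type 1 genes had 12 negative of 15, none called in those tools and 3 lower at an unadjusted p under 0.05, with Ager at 1708 ± 85.6 CPM in WT and 1544 ± 25 CPM in KO without overlap (log2 −0.15, adjusted p = 0.479).

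Immune lists held 1 gene called by edgeR, Stab1, while DESeq2 also called Ccl22 in the dendritic list (adjusted p = 8.13e-05) and Car4 (adjusted p = 4.53e-05). Car4 is a member of the alveolar macrophage list and of the aerocyte list, and which cells carry its difference was not tested. Alveolar macrophage genes had 8 positive and 6 negative of 14, with a median of 0.01 (−0.08 without WT 6, 0.08 without KO 2). Dendritic cell genes had 13 positive of 16, with a median of 0.17 (0.11 without KO 3, 0.27 without KO 5) and summed levels of 316 to 380 CPM in WT and 345 to 441 CPM in KO; edgeR and limma-voom called none, and 4 were higher at an unadjusted p under 0.05. Natural killer and cytotoxic genes were negative for 13 of 13, with a median of −0.58 that became −0.27 without WT 3, and none was called by edgeR, DESeq2 or limma-voom (3 at an unadjusted p under 0.05). Neutrophil genes had 14 negative of 16, with a median of −0.19 that became 0.04 without KO 2 and −0.66 without KO 5. Type I interferon genes had a median of −0.01, which became −1.26 without KO 2 and 0.90 without WT 5. Neutrophil genes had no call in any of those tools and type I interferon genes none in edgeR or limma-voom; DESeq2 gave no adjusted p for 15 of the 20 interferon genes and called none of the others. No member of either list had an unadjusted p under 0.05. The median of erythroid genes, 0.55, became −0.10 without KO 5.

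The source tissue of 6DT1 cells, mammary epithelium, was looked for through 14 tested genes of 19 listed, 7 positive and 7 negative. None was called by edgeR or limma-voom. At an unadjusted p under 0.05 (edgeR), 2 were higher and 2 lower. The higher ones were Pgr (log2 0.53, adjusted p = 0.419) and Ehf (log2 0.23, adjusted p = 0.362), and Rhox5 was among the lower. The milk gene Csn2 was at a mean of 0 CPM in WT and 0.00719 CPM in KO, Wap at 0 in both, and Lalba at 0.0205 and 0.0127 CPM. Epithelial genes shared with lung, Krt8 and Epcam, had log2 differences of −0.09 and 0.03. Rhox5, a homeobox gene of the X chromosome that is often expressed in tumour cells, ran from 0.777 to 3.46 CPM in WT and stood at 0.127, 0.332, 0.250, 0 and 0 CPM in KO. Its groups did not overlap, but it did not pass in edgeR (log2 −3.19, SE 0.667, adjusted p = 0.178), and DESeq2 called it (adjusted p = 0.000181). How many tumour cells each lung held is not given in the labels.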

How the data were processed

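Total RNA of whole lung was extracted with Qiagen RNeasy and made into libraries with Illumina TruSeq v4, per the labels' protocols. The authors deposited expected counts, 1 column per library for 54146 genes; the headers do not state this unit, which was read from the values, 13.86 to 16.43% of which were not whole in the day 14 libraries. The authors also deposited a joint table of FPKM values. Build mm10 and the tools RSEM 1.3.0, STAR 2.5.3 and limma 3.38.3 are named in the submitters' processing notes without their roles; the annotation release is not given in the sources used here. Every per-sample column was matched to a sample (0 were left unmatched).

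Expected counts were rounded to whole numbers, filtered with filterByExpr, scaled by TMM (factors 0.98 to 1.02) and tested with edgeR 4.0.16 (quasi-likelihood F test, R 4.3.3) on the 11 day 14 libraries, without covariates. P-values were adjusted by Benjamini and Hochberg over all 18141 genes; the common biological coefficient of variation was 0.162. Values per library are TMM-scaled CPM. Day 0 values and the difference between the days come from a fit of all 4 groups. No library was a copy of another (chi-square per gene within a genotype 12.5 to 69.4). The closing numbers of the titles run from 5 to 10 in WT and 25 to 30 in KO and follow genotype, while the opening numbers interleave, so no batch apart from genotype was found in the labels. The steps were run on simulated data, with effects placed only in genes that average more reads than Myl2 or Slc30a2. The simulation therefore does not bear on calls at such low counts.

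Genes named were Clic4, Cemip, Hipk2, Stab1 and Scarb1, all called genes whose higher group averaged 1 CPM or more, the next by unadjusted p up to 25 in all, and in each list called members and up to 3 others of smallest p. Predicted genes and pseudogenes were left out of that rule; 2 of the called genes fell there. List members named besides these are defining genes of their list and were named with their values known. The members, gene lists and tests were chosen with earlier results of these data known. Alternatives were DESeq2 1.42.0, limma-voom (limma 3.58.1), other scalings and filters, limma on log2(FPKM + 1) or log2(FPKM + 0.1) (genes with a mean FPKM of at least 0.5, or no filter), the fit of all 4 groups, and each library left out. Coordinates are GENCODE M21 on GRCm38, to which 54079 gene IDs matched without version and 52480 with it. Promoters are RefSeq's on GRCm38.p6. Tables and plots were made with Python 3.11.15, pandas 2.3.3 and matplotlib 3.10.9.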

Additional observations from a re-analysis of the deposited data

Results flagged for a closer look

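Across 174 groups of values, 19 held 1 library farther from the others than Dixon's test allows at the 95% level. Chance alone flags about 1 in 20 groups, which is 8.7 here. No cause was tested for any of them.

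Among genes, Tmod2 stood at 65.5 CPM in KO 1 against 76.5 to 79.5 CPM in the other KO libraries. Car4 stood at 173 CPM in WT 3 against 189.5 to 196 CPM in the other WT libraries.

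KO 5 stood apart in erythroid genes (32040 CPM in sum against 7787 to 11030), in the share of its 10 most abundant genes (9.26% against 6.15 to 6.47%), in vascular endothelial genes (7390 CPM against 7908 to 8092) and in lymphatic genes (709 CPM against 608 to 619). KO 2 stood apart in type I interferon genes (4653 CPM against 668 to 774), interferon gamma genes (2370 CPM against 574.5 to 915), MHC presentation genes (10250 CPM against 6686 to 7557) and fibroblast genes (10090 CPM against 8141 to 8655). KO 3 held 4574 CPM of cholesterol and fatty acid genes against 3079 to 3443 CPM, and KO 4 held 854 CPM of mammary epithelial genes against 927.5 to 948 CPM.

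In WT, library 5 stood apart in type I interferon genes (4547 CPM against 613 to 1194), interferon gamma genes (1949 CPM against 569 to 904) and mesothelial genes (677 CPM against 531 to 576). WT 3 held 371 CPM of natural killer genes against 119 to 205 CPM, and 5048 CPM of TGF-beta genes against 3574 to 4072 CPM. WT 2 held 342 CPM of proliferation genes against 207 to 239 CPM, and WT 6 held 7657 CPM of vascular endothelial genes against 8144 to 8434 CPM.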

How the results depend on the processing

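The count of 16 genes, 10 higher and 6 lower, moved most with the tool. DESeq2 called 100 genes, 67 higher and 33 lower, including all 16. limma on log2(FPKM + 1) called 9, 4 of them higher, and on log2(FPKM + 0.1) 10, 4 higher. On log2(FPKM + 1) without a filter it called 7, 3 higher. Of these calls 6, 6 and 5, in the same order, were among the 16. Leaving out each library in turn gave 9 to 17 called genes, 3 to 11 higher and 6 to 7 lower; 9 without WT 4 or WT 5, 10 without WT 3 or KO 5. The cause was not tested. limma-voom called 13, the fit of all 4 groups 21 (14 shared). Of 540 values of named genes under the alternatives, 429 kept their side of the threshold, 88 lost the call and 23 gained it; none reversed. Clic4, Selenon, Hipk2, Scarb1, Stab1, Pnrc2, Zfp46, Map1b and Gm7589 were called with every library left out. No paired analysis was possible because the labels tie no library of one genotype to one of the other; the library numbers 1 to 6 were given in accession order. Myl2, Slc30a2 and Cemip rest on few reads; whether depth ended their calls was not tested.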

Other observations

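Gene groups that record handling and sample quality also had values at day 14. Mitochondrially encoded genes had 12 positive and 3 negative of 15 (median log2 difference 0.14, and 0.093 without WT 1), with 7 higher at an unadjusted p under 0.05 and none called by edgeR, DESeq2 or limma-voom. Their summed level was 20510 to 23440 CPM in WT and 23260 to 26190 CPM in KO. Immediate early genes had 18 negative of 19 (median −0.46), glucocorticoid-responsive genes 12 negative of 14 (−0.23), stress genes 16 negative of 19 (−0.17) and clock genes 15 negative of 17 (−0.17). The immediate early median became −0.15 without WT 3 and −0.86 without KO 1, the glucocorticoid median −0.14 without KO 2 and −0.37 without KO 1, the stress median −0.11 without WT 3 and the clock median −0.06 without KO 5. In the first 3 of these no member was called by the same tools or had an unadjusted p under 0.05 (DESeq2 gave no adjusted p for 2 immediate early genes), and in the clock list 1 had. What part these groups have in the genes that passed was not tested.

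Interferon gamma and MHC presentation genes had 15 positive of 16 and 15 positive of 18. Their medians of 0.15 and 0.12 became −0.28 and −0.08 without KO 2 and 0.49 and 0.21 without WT 5. Basal cell genes were positive for 8 of 8, with a median of 0.18 (0.09 without KO 3, 0.34 without WT 5). Krt14, a keratin of basal cells, was at log2 1.38 (adjusted p = 0.165 in edgeR and 0.00469 in DESeq2). Its level was low, at 0.637 ± 0.22 CPM in WT and 1.67 ± 0.598 CPM in KO, with KO 2 the highest at 2.70 CPM. Wnt ligands, antagonists and targets had 13 positive and 14 negative of 27, with Sfrp1 at log2 0.45 (adjusted p = 0.309) and Wnt4 at 0.88 (adjusted p = 0.3); Wnt4 lies 2.005 Mb from Clic4. DESeq2 called Wnt4 (adjusted p = 0.0137) and Dkk2 (0.00069) in this list. Heparan sulfate genes had 10 positive and 12 negative of 22, with Ndst1, an enzyme that sulfates the chains, at −0.18 (adjusted p = 0.457), and Hspg2, a basement membrane core protein, at −0.27 (adjusted p = 0.241). Hspg2 also lies on chromosome 4, 2.20 Mb from Clic4. DESeq2 called Hspg2 (adjusted p = 0.0279) and Sulf2 (0.00457) in this list.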
